A study of Homo sapiens with 6 samples.

Results

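The RAS genes HRAS and NRAS and 7 genes transcribed in response to ERK signalling were followed in U-2 OS cells, a human osteosarcoma line, after ionizing radiation (IR). The ERK-responsive genes were the MAP kinase phosphatases DUSP4, DUSP5 and DUSP6, the signalling inhibitors SPRY2 and SPRY4, and the ETS transcription factors ETV4 and ETV5. Together they were 9 of the 21447 genes in the expression tables, taken as a list of names with no threshold on their values. The list was chosen with earlier results of these data known. Bulk RNA sequencing had been done on 3 libraries of untreated, asynchronously growing cells and on 3 libraries of cells harvested 24 h after a dose of 4 Gy, and no genotype, drug or transgene is named for either group. The methods describe the 3 libraries of a group as triplicate, independent samples without saying whether they were separate cultures grown on separate days, so the p-values measure the spread between these samples.

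RAS proteins are small GTPases that are switched on by exchange factors below growth factor receptors and switched off by GTPase-activating proteins. Active RAS starts the RAF, MEK and ERK kinase cascade, and ERK in turn drives transcription of its own antagonists. DUSP phosphatases remove the activating phosphates from ERK, Sprouty proteins act on the pathway near the receptors and RAS, and ETV4 and ETV5 are PEA3-type ETS factors whose transcription follows ERK activity in many cell types.

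HRAS and NRAS encode highly similar proteins from very different base compositions. This is shown here because the estimated log2 fold change of each gene turned in sign when base composition was corrected for. Neither gene passed the threshold used below, with or without that correction. The last 60 coding bases before the stop codon, which encode the hypervariable tail, are given for both genes, written 5′ to 3′ on the coding strand, from the GENCODE release 44 annotation of GRCh38. Capitals mark the last 4 codons, the box at which RAS proteins are lipid-modified. The stretches lie at chr11:532639-532698 for HRAS and chr1:114708538-114708597 for NRAS, both on the reverse strand and within 1 coding exon.
HRAS: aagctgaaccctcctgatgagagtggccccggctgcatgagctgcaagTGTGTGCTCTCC
NRAS: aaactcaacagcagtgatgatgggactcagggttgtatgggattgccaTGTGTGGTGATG

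Of the 60 tail bases, 31 were identical (51.7%), against 383 of the other 507 coding bases (75.5%). Both coding sequences held 189 codons, and G or C filled the third base in 81.5% of HRAS codons and in 46% of NRAS codons. Over the full reference transcripts, the GC content was 64.3% in the 1070 bases of HRAS-201 and 37.4% in the 4326 bases of NRAS-201.

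The libraries held 18573309, 22953834 and 20670070 estimated read counts in the untreated group and 20916100, 19053842 and 45308792 in the IR group. IR replicate 3 stood apart: it was the deepest, and the chi-square per gene between it and the other IR libraries was 29.1 and 32.3, against 3.46 to 9.22 for the other pairs within a group. Across 14323 genes that passed a filter on low counts, edgeR's quasi-likelihood test with a threshold of 0.05 on the adjusted p found 2227 with more RNA after IR (15.5%) and 2080 with less (14.5%), and on log2 TPM limma called 393 higher and 875 lower. The p53 targets CDKN1A and MDM2 were higher after IR, with log2 fold changes of 1.53 (edgeR adjusted p = 2.82e-05) and 0.60 (edgeR adjusted p = 2.91e-04), in the direction the labels imply. Of the osteoblast-lineage markers, COL1A1 (554 TPM), SPARC (1954 TPM) and RUNX2 (4.51 TPM) were present in untreated cells and COL1A2 was near absent (0.413 TPM). Of 5 markers of other cell types, CD3E was listed at 0 in all 6 libraries, PECAM1 stood at 0.0887 TPM, CDH1 at 0.846 TPM, PTPRC at 2.28 TPM and EPCAM at 15.1 TPM, and CDH1 was the one called, higher after IR by 0.61 log2 (edgeR adjusted p = 0.0465).

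The change after IR followed GC content across all genes. In the eighth of tested genes with the highest GC content, 45.1% were called higher and 0.614% lower, and in the eighth with the lowest, 3.63% were higher and 32.7% lower. The median log2 difference of the GC-richest eighth from the untreated mean was 0.24, 0.25 and 0.50 in IR replicates 1, 2 and 3. HRAS, at 64.26% over its expressed transcripts, lay in the highest eighth and NRAS, at 37.42%, in the lowest. The origin of the trend was not tested, and log2 fold changes of the RAS and ERK feedback genes, and of some pathway genes, are also given after the GC trend of every library was removed by an offset, called the GC-corrected value.

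**Figure D1:**
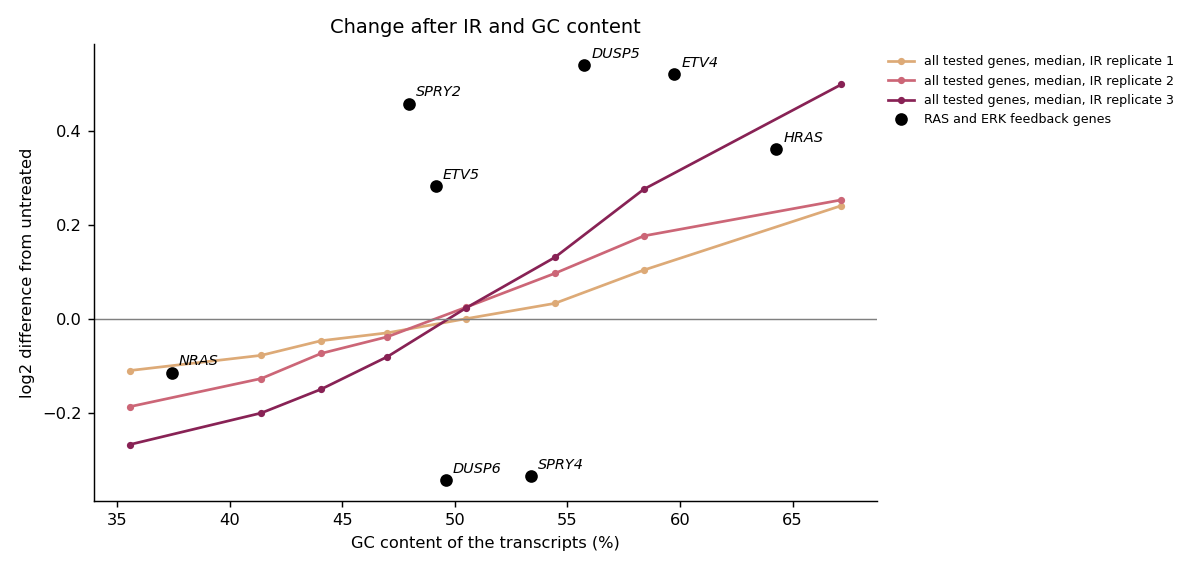
Log2 difference from untreated cells (y axis) against the GC content of transcripts in percent (x axis), where lines join the medians of 8 equal groups of all tested genes in each of the 3 IR libraries, at the midpoint of each group's range, and black points are the log2 fold changes of the 8 tested RAS and ERK feedback genes. The lines climb from -0.11, -0.19 and -0.27 to 0.24, 0.25 and 0.50, and SPRY2, ETV5, DUSP5 and ETV4 lie above all 3 lines.

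Levels were compared between genes on the TPM scale, which divides by transcript length. NRAS was the most abundant of the 9 in untreated cells at 88.5 ± 3.99 TPM (SD, n = 3), above 91.7% of all genes, followed by HRAS at 26.7 ± 5.03. ETV4 (17.0 ± 3.82) and ETV5 (14.4 ± 0.184) came next, and their untreated libraries overlapped, with ETV4 spanning 12.7 to 20.1 and ETV5 14.2 to 14.6. SPRY2 (3.21 ± 0.0336) and DUSP5 (2.42 ± 0.232) stood near the middle of all genes, at the 48.1 and 45.9 percentiles. DUSP6 (0.476 ± 0.157), SPRY4 (0.341 ± 0.0519) and DUSP4 (0.0505 ± 0.0312) were scarce, and the untreated libraries of DUSP6 and SPRY4 overlapped. The TPM of NRAS was 3.40, 4.19 and 2.63 times that of HRAS in untreated libraries and 2.97, 2.42 and 1.63 times in IR libraries, and these ranges overlapped.

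After IR, 4 of the 8 genes that could be tested were higher, namely DUSP5, SPRY2, ETV4 and ETV5, and 0 were lower. Among all tested genes 30.1% were called, 15.5% higher and 14.5% lower. DESeq2's Wald test called the same 4 genes. At an unadjusted p under 0.05 edgeR's quasi-likelihood test counted 5 higher, HRAS being the addition, and 0 lower. The share of all tested genes that were higher at that cut is not given here and cannot be below 15.5%, so the count of 5 is a description only. The median log2 fold change over these 8 genes was 0.32, beside 0.01 over all tested genes. DUSP4 had 2 to 8 estimated counts in each library and did not pass the filter. In the other 8, the IR and untreated libraries did not overlap for the 4 higher genes or for NRAS, which lay lower, whereas 23.8% of all tested genes lay fully higher and 23.3% fully lower. With 3 libraries against 3, the exact two-sided permutation test of a single gene cannot give a p below 0.1, which each of these 5 genes reached.

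The 4 calls depended on the processing. They were also made with DESeq2 size factors, with DESeq2's Wald test, with edgeR's likelihood ratio test and with either other filter on low counts, yet none of the 4 passed when an offset for the effective transcript length of each library was added, or in limma on log2 TPM. Over all tested genes higher calls also fell, from 2227 to 837 with the length offset and 393 in limma on log2 TPM. At an unadjusted p under 0.05 these alternatives counted 3 and 1 of the 8 genes as higher. No share of all tested genes is given at an unadjusted p.

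**Figure D2:**
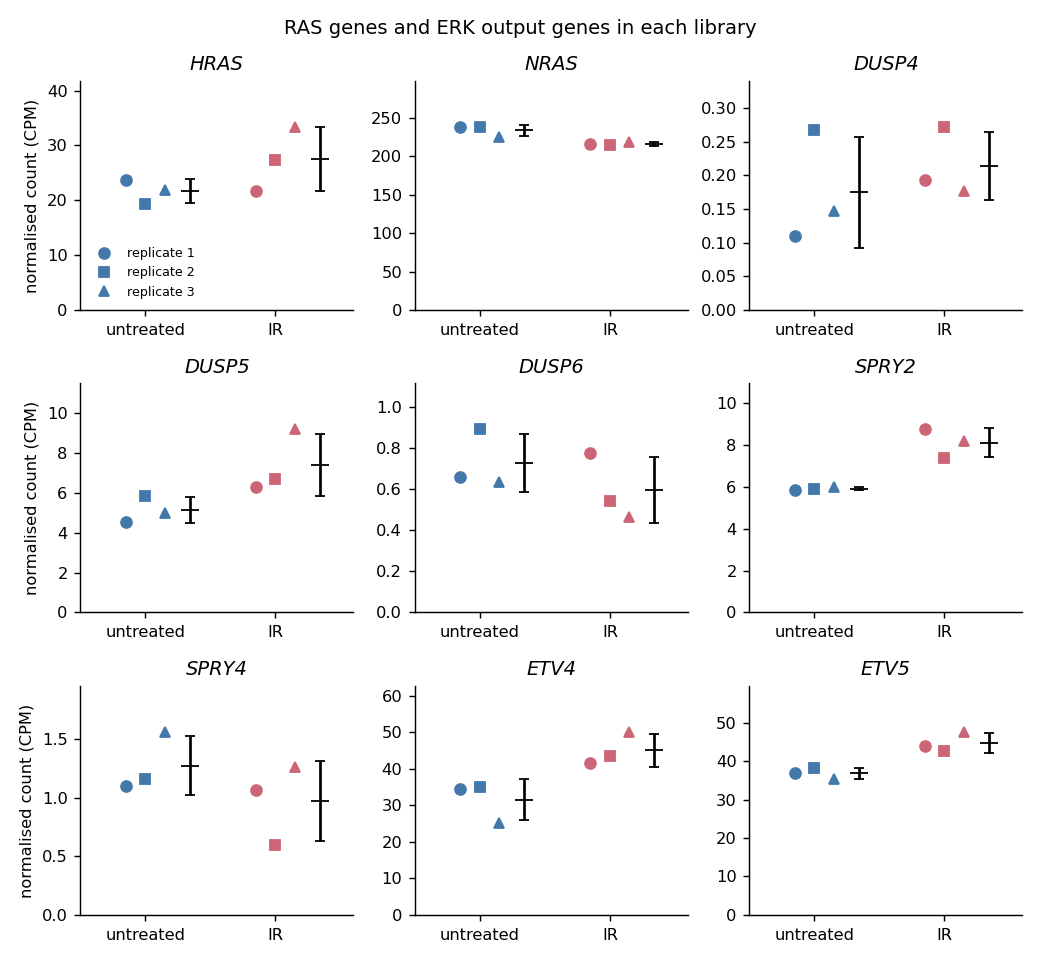
Normalised count (CPM, y axis, from 0) of each gene in the 3 untreated and 3 IR libraries, with symbols for the replicate numbers and black bars for mean ± SD. All IR libraries lie above all untreated libraries for DUSP5, SPRY2, ETV4 and ETV5, and below them for NRAS, where the group means are 216 and 234 CPM.

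HRAS (ENSG00000174775, chr11:532242-537321, reverse strand, 6 exons in its reference transcript) is the RAS gene first known from rat sarcoma viruses. Its normalised counts, scaled to a common library size with TMM factors (CPM), were 23.7, 19.3 and 21.8 in untreated libraries and 21.7, 27.3 and 33.4 in IR libraries. IR replicate 1 lay inside the untreated range and the other IR libraries above it, with replicate 3 the highest. The log2 fold change was 0.36 (SE 0.144, 95% interval 0.04 to 0.68) and did not pass the threshold (edgeR adjusted p = 0.084). Without IR replicate 3 it was 0.17 and without IR replicate 1 it was 0.49, the latter with an edgeR adjusted p of 0.0152. The GC-corrected value was -0.035 (SE 0.115, edgeR adjusted p = 0.860), opposite in sign but smaller than its SE.

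NRAS (ENSG00000213281, chr1:114704469-114716771, reverse strand, 7 exons) was first found in neuroblastoma and is represented by 1 transcript in the tables. Its normalised counts were 238, 238 and 226 CPM in untreated libraries and 216, 214 and 219 CPM in IR libraries. Every IR library was lower than every untreated library. The log2 fold change of -0.11 (SE 0.0593, 95% interval -0.24 to 0.02) did not pass (edgeR adjusted p = 0.171), and the interval leaves out a fall larger than 0.24 log2. GC correction turned it to 0.095 (edgeR adjusted p = 0.322). In bulk RNA, fewer cells expressing a gene and less RNA in each cell cannot be told apart.

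By the profile over the 6 libraries, the genes nearest to HRAS among 11674 well-counted genes were ZNF667, RTN2 and FUZ, with root mean square differences of 0.0630, 0.0714 and 0.0717 in centred log2 CPM. Those nearest to NRAS were KPNA6, CLDND1 and RTN3, at 0.00987, 0.0114 and 0.0125. The measure favours genes with small differences between libraries, as NRAS has, and is a description only.

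Among the phosphatases, DUSP5 (ENSG00000138166, chr10:110497907-110511533, forward strand, 4 exons) encodes a nuclear enzyme that dephosphorylates and anchors ERK. Its normalised counts were 4.56, 5.84 and 4.98 CPM in untreated libraries and 6.29, 6.70 and 9.19 CPM in IR libraries. All IR libraries were higher than all untreated ones, and IR replicate 3 was well above the rest. DUSP5 rose by 0.54 log2 (SE 0.181, 95% interval 0.14 to 0.94, edgeR adjusted p = 0.0463), close to the threshold. The call was kept in 6 of 16 alternatives. It was lost with GC correction (0.42, edgeR adjusted p = 0.0925) and on leaving out any library except IR replicate 1, with edgeR adjusted p from 0.0577 without untreated replicate 2 to 0.194 without IR replicate 3, where the log2 fold change was 0.33.

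DUSP6 (ENSG00000139318, chr12:89347235-89352501, reverse strand, 3 exons) encodes the cytoplasmic phosphatase specific for ERK and is one of the most used transcriptional markers of ERK activity. It was represented by 12, 20 and 13 estimated counts in untreated libraries and by 16, 10 and 21 in IR libraries. On the CPM scale these were 0.659, 0.892 and 0.635 against 0.775, 0.544 and 0.465, and the groups overlapped. The log2 fold change of -0.34 (SE 0.349) had a 95% interval of -1.12 to 0.43 and an edgeR adjusted p of 0.487. Changes of either sign within this interval thus remained compatible with these few counts, and the GC-corrected value was -0.34. The counting is not stated to use strand, so reads of DUSP6 and of the antisense RNA ENSG00000274021, which shares 1105 exonic bases in the annotation and was not analysed here, cannot be told apart.

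DUSP4 (ENSG00000120875, chr8:29333064-29350684, reverse strand, 4 exons), a nuclear phosphatase of ERK and related kinases, was at the limit of detection. It had 2, 6 and 3.04 estimated counts in untreated libraries and 4.06, 5.04 and 8.07 in IR libraries, of which the last was the deepest library. Its level did not exceed 0.0864 TPM in any library, and no fold change is given.

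SPRY2 (ENSG00000136158, chr13:80335976-80341126, reverse strand, 2 exons) encodes a Sprouty protein that restrains signalling from receptor tyrosine kinases to RAS and ERK. Its normalised counts were 5.88, 5.89 and 6.01 CPM in untreated libraries and 8.76, 7.41 and 8.22 CPM in IR libraries. The untreated libraries were nearly equal, all IR libraries were higher, and IR replicate 3 was not the highest. SPRY2 rose by 0.46 log2 (SE 0.129, 95% interval 0.17 to 0.74, edgeR adjusted p = 0.0239). At 47.97% GC it lay in the fourth lowest eighth, where 8.26% of genes were called higher and 15.7% lower, and its GC-corrected value was 0.49 (edgeR adjusted p = 0.0186). The call was kept in 9 of 16 alternatives and was lost without untreated replicate 1 or 2 or without IR replicate 1 or 3, with edgeR adjusted p of 0.0675, 0.0707, 0.0717 and 0.0546 and log2 fold changes from 0.39 to 0.45.

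SPRY4 (ENSG00000187678, chr5:142310427-142326455, reverse strand, 2 exons) encodes a further Sprouty inhibitor and was a scarce transcript. Its normalised counts were 1.10, 1.16 and 1.56 CPM in untreated libraries and 1.07, 0.599 and 1.26 CPM in IR libraries. IR replicate 2 was the lowest and IR replicate 3 lay inside the untreated range. The log2 fold change was -0.33 (SE 0.322, 95% interval -1.05 to 0.38, edgeR adjusted p = 0.461) and -0.39 with GC correction, from 11 to 57 estimated counts a library. Its interval overlaps that of SPRY2, and the difference between the genes was not tested.

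ETV4 (ENSG00000175832, chr17:43527844-43579620, reverse strand, 13 exons) encodes a PEA3-type ETS factor. Its normalised counts were 34.4, 35.1 and 25.1 CPM in untreated libraries and 41.5, 43.6 and 50.2 CPM in IR libraries. Untreated replicate 3 was the lowest of all and the groups did not overlap. ETV4 rose by 0.52 log2 (SE 0.126, 95% interval 0.24 to 0.80, edgeR adjusted p = 0.0125), and the call was kept in 13 of 16 alternatives, with each library left out among them. The value was 0.38 without untreated replicate 3 and 0.42 without IR replicate 3. At 59.75% GC it lay in the seventh eighth, where 27.6% of genes were called higher, and its GC-corrected value was 0.30 (edgeR adjusted p = 0.0460). It shares 68 exonic bases with DHX8 on the opposite strand.

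ETV5 (ENSG00000244405, chr3:186046314-186110318, reverse strand, 13 exons) encodes a PEA3-type factor of the same small group as ETV4. Its normalised counts were 37.1, 38.3 and 35.3 CPM in untreated libraries and 43.9, 42.7 and 47.7 CPM in IR libraries. All IR libraries were higher. ETV5 rose by 0.28 log2 (SE 0.0737, 95% interval 0.12 to 0.45, edgeR adjusted p = 0.0171), and the GC-corrected value was 0.29 (edgeR adjusted p = 0.0121), at 49.15% GC in an eighth where 11.6% of genes were called higher. The call was kept in 12 of 16 alternatives and was lost without untreated replicate 1 (edgeR adjusted p = 0.0611) and without untreated replicate 3 (edgeR adjusted p = 0.0615). ETV5 shares 164 exonic bases with DGKG on the same strand, so reads there could be assigned to either gene.

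**Figure D3:**
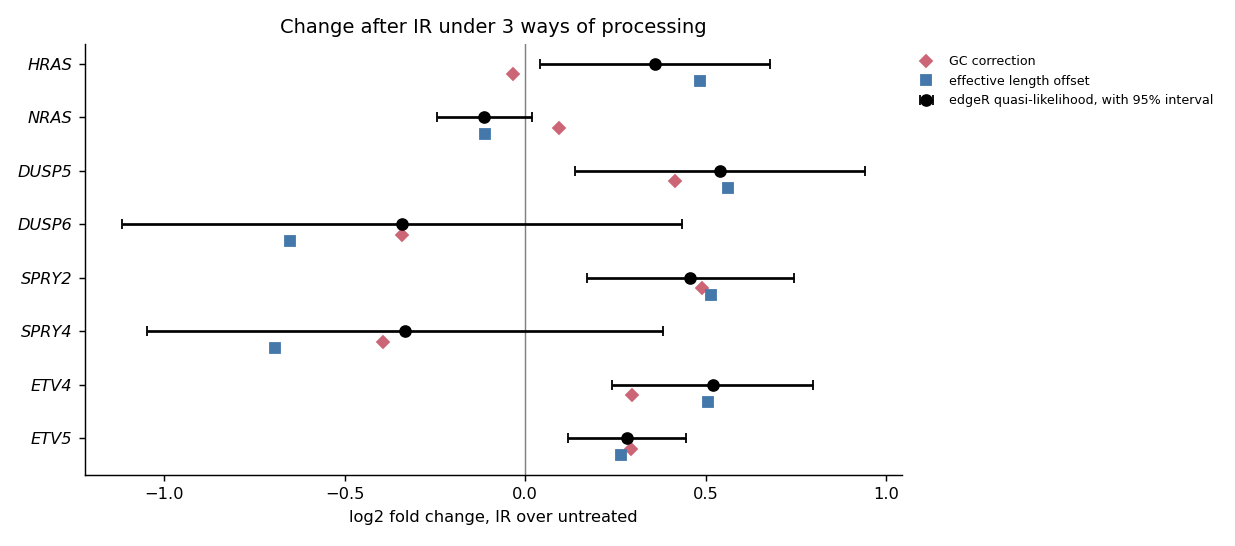
Log2 fold change, IR over untreated (x axis), of the 8 tested genes by edgeR's quasi-likelihood test (black, with 95% interval), after GC correction (red diamonds) and with an effective length offset (blue squares). GC correction moves HRAS from 0.36 to -0.035 and NRAS from -0.11 to 0.095, while SPRY2 (0.46 and 0.49) and ETV5 (0.28 and 0.29) stay in place.

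The division of each gene's reads between its transcripts was tested as a further readout. Of 10666 genes with at least 2 transcripts above the filter, edgeR's diffSpliceDGE called 512 (4.8%), and of the 4 genes that could be tested, HRAS was called and SPRY2, ETV4 and ETV5 were not. HRAS had 3 transcripts tested (edgeR adjusted p = 1.52e-07). Its main transcript, HRAS-201, held 79.0%, 96.0% and 89.0% of HRAS counts in untreated libraries and 82.7%, 88.1% and 82.6% in IR libraries, with overlapping groups. The call rested on HRAS-203, which passed the filter through the IR libraries alone, so that the p is a comparison with counts of 0, and under a filter of 10 counts in each library HRAS had too few transcripts to be tested. HRAS-203 was estimated at 0 of 431, 433 and 447 HRAS counts in untreated libraries, allowing shares of up to 0.696%, 0.693% and 0.671%. In IR libraries it was estimated at 27 of 448 counts (6.03%, 95% Wilson interval 4.17 to 8.63), 20 of 502 (3.98%, 2.59 to 6.07) and 61 of 1508 (4.05%, 3.16 to 5.16).

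HRAS-203 begins with the exon at chr11:535257-535339, whereas HRAS-201 begins with the exon at chr11:535416-535576. Its last exon, chr11:532242-532755, runs through the stretch that HRAS-201 splices out between its exons at chr11:532631-532755 and chr11:532242-532522. That stretch lies in the 3′ untranslated region, since both transcripts share the stop codon at chr11:532636-532638. HRAS-204 has the same last exon as HRAS-203 but the first exon of HRAS-201. It also has an exon at chr11:533277-533358, which holds its stop codon at chr11:533296-533298. HRAS-204 was estimated at 17.5, 14.9 and 0 counts in untreated libraries and at 0 in all 3 IR libraries. The minor transcripts HRAS-206 and HRAS-208 reached 96.4 and 80.2 counts in IR replicate 3 and 20.1 and 0 in IR replicate 2. These counts are estimates that share reads between overlapping transcripts, the intervals cover counting error only, and the part of read assignment in the result was not tested.

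**Figure D4:**
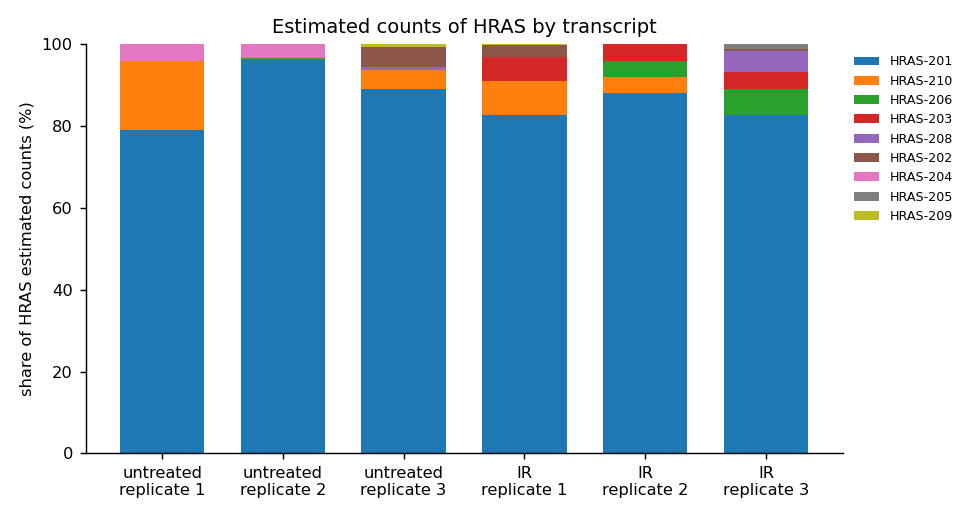
Share of the estimated counts of HRAS (percent, y axis) given to each of its 9 transcripts with counts, in the 3 untreated and 3 IR libraries (x axis). HRAS-201 holds 79.0% to 96.0% in every library, and HRAS-203 (red) appears in the 3 IR libraries at 4.045% to 6.04% of unrounded counts.

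The estimates for ETV4 transcripts varied widely within each group. ETV4-203 was estimated at 318, 594 and 0 counts in untreated libraries and 623, 121 and 1307 in IR libraries, while ETV4-201 had 0, 7.35 and 477 against 53.3, 656 and 198. The transcript that dominated thus changed between libraries of the same group, and ETV4 was called (edgeR adjusted p = 7.82e-07) when untreated replicate 3 was left out but not in the full comparison.

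Around these genes, 7 lists of the RAS and ERK pathway held 74 genes, of which 70 were tested, 16 were called higher and 13 lower, where 15.5% and 14.5% of all tested genes were called. Their median log2 fold change was 0.04. After GC correction 8 were higher and 10 lower, beside 1684 and 1798 of all tested genes, and on log2 TPM limma called 1 higher and 5 lower. Genes given with "also" fall outside the rule for named genes and were added after their values were seen.

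Of 8 related RAS-family GTPases, 3 rose and 0 fell by edgeR's quasi-likelihood test, with a median of 0.01, and 0 fell at an unadjusted p under 0.05 or by DESeq2's Wald test. RRAS, a GTPase acting on integrins and adhesion, rose by 0.44 log2 (edgeR adjusted p = 0.00358), from 30.9 ± 2.24 to 41.8 ± 2.08 CPM, and its GC-corrected value was 0.08 (edgeR adjusted p = 0.466). RIT1 rose by 0.32 (edgeR adjusted p = 0.0170), and RALB also rose, by 0.20 (edgeR adjusted p = 0.0264).

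Of 13 tested exchange factors and upstream adaptors, 2 rose and 4 fell, with a median of -0.16. RASGRF1, a calcium-responsive exchange factor for RAS, rose by 0.50 (edgeR adjusted p = 0.00674), from 26.8 ± 3.47 to 38.0 ± 3.25 CPM, and was called in all 16 alternatives. FRS3, an adaptor of fibroblast growth factor receptors, rose by 0.44 (edgeR adjusted p = 0.0315) and was called in 4 of 16, with a GC-corrected value of 0.23 (edgeR adjusted p = 0.214). SOS1, the main exchange factor linking receptors to RAS, fell by 0.39 (edgeR adjusted p = 0.0166), and the adaptor GAB1 fell by 0.38 (edgeR adjusted p = 0.0206), both losing the call with GC correction (-0.24 and -0.25). The phosphatase PTPN11 also fell, by 0.32, as did the adaptor CRKL, by 0.33.

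Of 9 tested GTPase-activating and RAS turnover genes, 1 rose and 2 fell, with a median of -0.18. NF1, which inactivates RAS, fell by 0.47 (edgeR adjusted p = 0.00367), from 223 ± 10.4 to 161 ± 18.4 CPM, with a GC-corrected value of -0.35. RASA1, a further GTPase-activating protein, fell by 0.36 (edgeR adjusted p = 0.00418), with a GC-corrected value of -0.19 (edgeR adjusted p = 0.0320). LZTR1, an adaptor for RAS degradation, rose by 0.29 (edgeR adjusted p = 0.0186), but its direction turned with the effective length offset (-0.11) and in limma on log2 TPM (-0.16), and it lost the call with GC correction (0.12).

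Of 17 kinases, scaffolds and ERK-regulated factors of the cascade, 2 rose and 5 fell, with a median of -0.01. RPS6KA1, a kinase that ERK activates, rose by 0.49 (edgeR adjusted p = 0.00374) and the MEK gene MAP2K2 by 0.34 (edgeR adjusted p = 0.0214), the latter losing the call with GC correction (0.10). ELK4, an ETS factor phosphorylated by ERK, fell by 0.62 (edgeR adjusted p = 6.45e-04), from 88.8 ± 4.38 to 57.9 ± 4.28 CPM, and was called in all 16 alternatives. The scaffold KSR2 fell by 1.36 (edgeR adjusted p = 0.00732) from 7.18 ± 1.40 to 2.85 ± 1.36 CPM, and by 0.92 without passing (edgeR adjusted p = 0.117) with the effective length offset. BRAF and SHOC2 also fell, by 0.37 each.

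The other negative regulators were mixed. Of 7 other MAP kinase phosphatases 3 rose and 1 fell, with a median of 0.24, beside a median GC content of 59.1% for the list. DUSP2 rose by 0.81 (edgeR adjusted p = 0.0122) and lost the call with GC correction (0.43), DUSP10, which prefers p38 and JNK, rose by 0.60 (edgeR adjusted p = 0.00592) and by 0.68 with GC correction, and DUSP16 fell by 0.24 (edgeR adjusted p = 0.0193). DUSP1 also rose, by 0.27, and lost the call with GC correction, under which DUSP10 was the 1 gene of the list called higher. Of 4 other tested Sprouty and SPRED genes, SPRED3 rose by 0.28 (edgeR adjusted p = 0.0285), was called in 8 of 16 alternatives and lost the call with GC correction (0.13).

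Of 12 other ERK output genes, 4 rose and 1 fell, with a median of 0.28 and a median GC content of 54.9%. CCND1, which encodes cyclin D1, rose by 0.52 (edgeR adjusted p = 9.16e-04), from 123 ± 6.41 to 177 ± 9.16 CPM, and by 0.49 with GC correction. The immediate early gene EGR1 rose by 0.52 (edgeR adjusted p = 0.00934), from 28.4 ± 5.22 to 40.6 ± 2.02 CPM. PHLDA1 fell by 0.28 (edgeR adjusted p = 0.0276) and was called in 6 of 16 alternatives, with a GC-corrected value of -0.15 (edgeR adjusted p = 0.236). EPHA2 and FOSL1 also rose, by 0.43 and 0.33, and both lost the call with GC correction. Under it 2 genes of the list were called higher, CCND1 and EGR1.

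**Figure D5:**
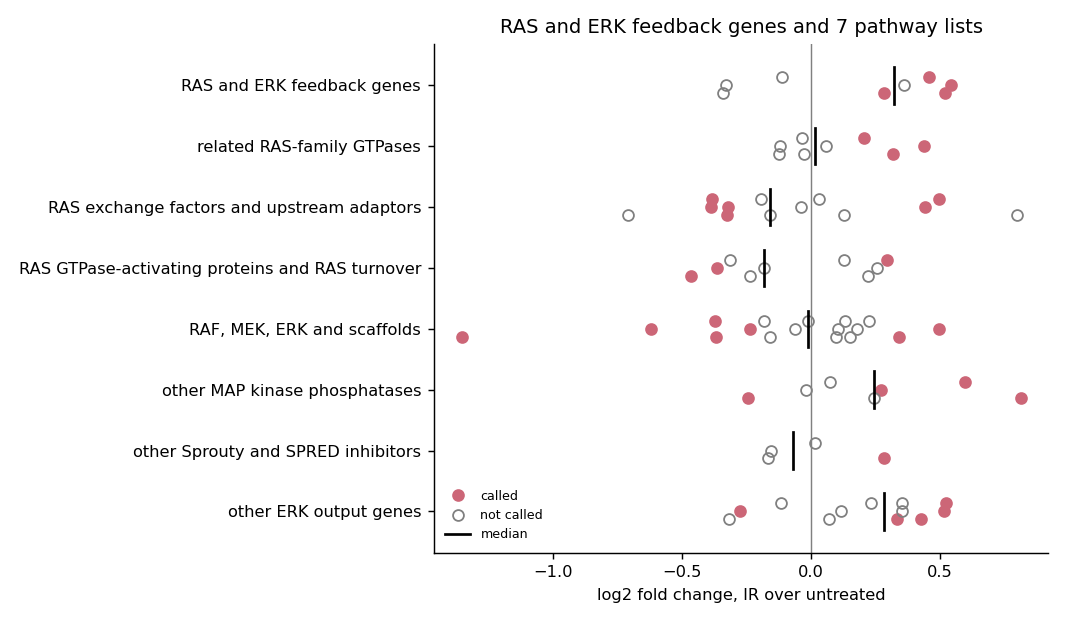
Log2 fold change, IR over untreated (x axis), of each tested gene in 8 groups (y axis), with filled points for genes called by edgeR at an adjusted p under 0.05, open points for the others and a black bar at the median. The median is 0.32 for the RAS and ERK feedback genes, 0.28 for other ERK output genes, 0.24 for other MAP kinase phosphatases and between -0.18 and 0.01 for the other 5 lists.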

How the data were processed

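Per the labels and the study's methods, RNA of U-2 OS cells was sequenced on an Illumina instrument (mRNA library per the labels, total RNA kit per the methods), reads were trimmed with fastp and the authors estimated counts per transcript with kallisto on GENCODE release 37 (GRCh38). The deposited tables hold 1 library each, with expected (estimated) counts, TPM, which the authors scaled by effective length and library total, and transcript and effective lengths, other values used only as an offset. Versions of fastp and kallisto are not given in the sources used here. Identifiers linked 158711 of 161171 transcripts to genes of GENCODE release 44 ( 1.53% to 1.80% of counts had no link), and estimates were added up per gene and rounded.

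IR and untreated libraries were compared with edgeR 4.0.16 (R 4.3.3; filterByExpr, TMM, quasi-likelihood test, Benjamini-Hochberg over all tested genes, threshold 0.05), and transcript usage with diffSpliceDGE. Scripts were tested on simulated data. Alternatives, 16 for genes and 8 for usage, included DESeq2 1.42.0 and limma 3.58.1 on log2(TPM + 1). Named list genes were the 2 highest and 2 lowest called ones averaging 100 counts or more. Genes and lists were chosen with earlier results of these data known. Counting error is smallest for the abundant NRAS and largest for DUSP4, DUSP6 and SPRY4. GC content is from release 44. Fold changes on log2(TPM + 1) understate changes of low genes. Some items are not reported here.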

Additional observations from a re-analysis of the deposited data

How the results depend on the processing

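Over all genes, 2227 were called higher and 2080 lower. Higher genes numbered 1480 with GC correction and the replicate block, 837 with the effective length offset, 393 in limma on log2 TPM and 1295 to 2114 with 1 library left out, and lower genes 875, 875 and 1244 to 2284 under the last 3. Higher RAS and ERK feedback genes, 4 in all, numbered 2 with the replicate block (ETV4 and ETV5), 2 with GC correction and the block (ETV5 and SPRY2), 0 with the length offset, 0 in limma on log2 TPM and 1 to 4 with 1 library left out, the 4 being DUSP5, ETV4, ETV5 and HRAS, without IR replicate 1. The number called lower was 0 under all 16 alternatives, DESeq2's Wald test among them, and at an unadjusted p under 0.05 it was 0 except without IR replicate 3, where it was 1. The 16 higher pathway genes became 8 with GC correction, 8 with the block added, 6 with the length offset, 1 in limma and 8 to 15 with 1 library left out. The 13 lower ones became 6, 5 and 7 to 14 under the last 3.

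HRAS turned to -0.035 with GC correction and -0.042 with the block added, NRAS to 0.095 and 0.094, and LZTR1 to -0.11 with the length offset and -0.16 in limma. None of these values passed the threshold. Changed transcript usage was called in 1 gene, HRAS, through HRAS-203, a transcript estimated at 0 in all untreated libraries. It was called in 0 genes when at least 10 counts in every library were required, since HRAS then had under 2 transcripts. With 1 library left out it was called in 1 to 2, ETV4 being added without untreated replicate 3. For HRAS-203, leaving out 1 library keeps the comparison with counts of 0, so these refits are no independent check of the HRAS call. Apart from HRAS having too few transcripts to be tested, the cause of these differences between settings was not tested.

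Same-numbered libraries did not deviate together (correlations -0.0175, 0.0072 and -0.0519). This cannot show whether the samples were paired, since pairs with little shared deviation would give similar values. The replicate block is therefore given as an alternative only. It gave 1727 higher and 1624 lower genes. Low counts limited DUSP4, DUSP6 and SPRY4, with at most 57 estimated counts in any library.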
